A study of Mus musculus with 2 samples.

Results

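The genes described here are the Rab GTPases, measured in induced regulatory T (iTreg) cells of the mouse with and without Tubastatin A (TSA), an inhibitor of the deacetylase HDAC6. They were taken by symbol, as the word Rab followed by a number and at most a letter and a digit, so that Rab-interacting and Rab-like genes stayed out. There were 59 such genes among 23282 rows, and 39 of them had at least 10 reads in at least 1 library, the minimum that 12164 genes met. Membership was chosen by symbol alone, although the family was picked for description with earlier results of these data known. Rab34 was selected on its difference between these same 2 libraries, so its difference from the rest of the family is given as a description and carries no test.

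Rab proteins are small GTPases that mark membranes and act as switches of vesicle traffic. Exchange factors load them with GTP, which lets them recruit effectors such as tethers and motor adaptors, and GTPase-activating proteins return them to the GDP-bound state. Lipid anchors are added by a geranylgeranyl transferase with an escort protein, and GDI proteins extract the inactive form from membranes. In T cells, Rabs of the recycling and secretory routes carry the antigen receptor and granule contents to the contact with the antigen-presenting cell.

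Naïve CD4+ T cells from the spleens of wild-type female C57BL/6 mice, 7 to 10 weeks old and in a number not given in the sources used here, were activated with antibodies to CD3ε and CD28 and kept for 1 day in medium with IL-2 (1 ng/ml), TGF-β1 (5 ng/ml) and antibodies to IFN-γ and IL-4, which both cultures received. The control culture received the solvent DMSO and the TSA culture 10 μM TSA, and the comparison asked which transcripts differ early in Treg differentiation when HDAC6 is inhibited. Each condition had 1 library, made with a QuantSeq kit that reads the end of each polyadenylated transcript, so that reads compare between genes without a correction for length. No difference given below has a replicate check.

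The reads recovered from the deposited values summed to 10846045 for the control and 10432333 for the TSA library. The 10 T cell markers examined, among them Cd3e, Cd4 and Foxp3, were all measured, with 28717 and 27730 reads in all. Foxp3, the regulator that defines Treg cells, had 1633 and 965 reads. Markers of other lineages summed to 12 and 15 reads for B cells (with Pax5 at 0 in both), 65 and 52 for myeloid cells, 0 and 3 for NK cells, 80 and 87 for CD8 cells, 60 and 87 for erythroid cells and platelets, and 215 and 329 for fibroblast, endothelial and epithelial cells.

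Promoter windows of 3 Rabs that were more than 2-fold higher in the TSA library are shown first, because they let the sequence around each start be set beside the reads. A window runs from 250 bases before to 50 bases after an annotated start (RefSeq, GRCm38.p6), written 5′ to 3′ on the gene's strand. Capitals mark every match to the AP-1 site TGANTCA or the GC box GGGCGG, each searched on both strands. Rab34 lies at chr11:78188177-78188476 (plus strand), Rab31 at chr17:65772703-65773002 (minus strand) and Rab32 at chr10:10558158-10558457 (minus strand).
Rab34: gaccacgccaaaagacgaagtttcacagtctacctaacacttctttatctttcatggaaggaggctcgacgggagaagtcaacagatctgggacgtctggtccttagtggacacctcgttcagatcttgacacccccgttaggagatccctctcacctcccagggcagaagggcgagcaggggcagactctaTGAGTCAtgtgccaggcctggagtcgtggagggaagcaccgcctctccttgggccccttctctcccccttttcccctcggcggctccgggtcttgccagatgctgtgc
Rab31: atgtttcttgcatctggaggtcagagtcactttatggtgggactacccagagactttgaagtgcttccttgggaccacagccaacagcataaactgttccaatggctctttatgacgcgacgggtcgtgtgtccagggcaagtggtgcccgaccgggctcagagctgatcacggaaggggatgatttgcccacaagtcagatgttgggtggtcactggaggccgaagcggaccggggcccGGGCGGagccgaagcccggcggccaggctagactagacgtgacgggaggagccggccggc
Rab32: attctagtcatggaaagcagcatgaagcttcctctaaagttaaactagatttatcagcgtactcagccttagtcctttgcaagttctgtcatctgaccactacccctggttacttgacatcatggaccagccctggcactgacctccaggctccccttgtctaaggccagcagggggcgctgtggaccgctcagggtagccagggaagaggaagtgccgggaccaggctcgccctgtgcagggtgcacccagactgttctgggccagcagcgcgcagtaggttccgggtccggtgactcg
The window of Rab34 held 1 AP-1 match, that of Rab31 held 1 GC box, and that of Rab32 held neither. Rab33a, also more than 2-fold higher, has a window that is not printed, and Rab37 has none in the table. A further Rab34 window, chr11:78188498-78188797, held 1 GC box and no AP-1 match. Among all 32851 windows of this length, 7.81% held an AP-1 match and 35.7% a GC box, and among the first windows of the 48 Rabs that had one, 4.17% (2 genes) and 70.8% (34 genes) did. The Rab windows had a median GC content of 61.7% and a median of 20 CpG sites, against 52.7% and 7 for all windows. A match is a run of letters, and no binding was measured here.

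Rab transcripts took a similar share of both libraries, while single members differed. All Rabs together had 28671 reads in the control and 28233 in the TSA library, which is 0.264% and 0.271% of all reads. By the scaling of the deposited values the summed level was 0.975 times the control (95% interval 0.959 to 0.991), and by total reads it was 1.02 times (1.01 to 1.04), so that its direction turned with the scaling. These intervals, like all those below, are exact binomial ones. They cover counting error only and compare 2 libraries, and in a mixed RNA sample fewer cells of a type cannot be told apart from less RNA per cell.

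Of the 39 Rabs with enough reads, 5 were more than 2-fold higher in the TSA library (12.8%) and 0 were more than 2-fold lower. Over all 12164 genes tested, 11.5% were higher and 3.15% lower by the same rule. When each library had to hold 10 reads or more, 4 of 38 Rabs were higher against 4.80% of all genes. These counts include Rab34, which was selected on this difference, and without it 4 of 38 tested Rabs (10.5%) were higher under the first rule. The median log2 fold change (TSA minus control) was 0.13 for the Rabs, with quartiles of -0.19 and 0.34, and 0.02 for all genes, with quartiles of -0.26 and 0.39. Leaving out Rab34 gave a median of 0.09 for the Rabs. The 95% interval of the fold lay above 1 for 15 Rabs (38.5%, against 28.1% of all genes), below 1 for 13 (33.3%, against 28.0%) and held 1 for 11. When the reads were scaled by total reads instead, 19 Rabs had an interval above 1 and 7 an interval below 1, against 33.7% and 21.6% of all genes.

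**Figure D1:**
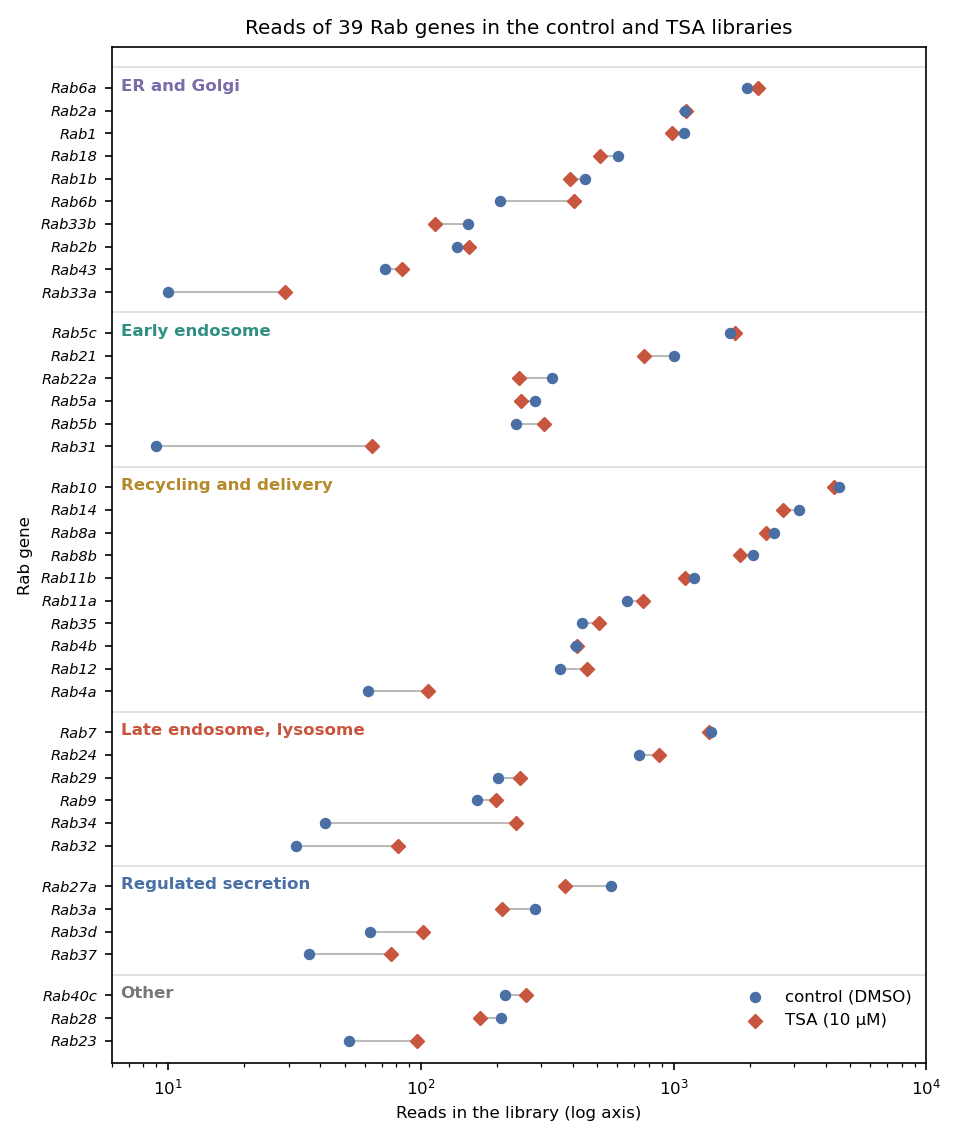
Reads of the 39 Rab genes tested in the control (DMSO) and TSA libraries, grouped by the route each Rab serves, on a log axis with 1 point per gene and library. Most pairs of points lie close together, while Rab34 (42 and 239 reads) and Rab31 (9 and 64 reads) are far apart.

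Rab34 acts in Golgi and lysosome positioning, in macropinocytosis and in the early steps of primary cilium formation. It had 42 reads in the control and 239 in the TSA library, or 3.87 and 22.9 CPM (reads scaled to the library total). The deposited values differed by 2.47 on the log2 scale, a 5.53-fold higher level in the TSA library (95% interval 4.05 to 8.02).

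Set against the other 38 Rabs tested, whose median log2 fold change was 0.09, Rab34 stood 2.37 higher. Among the Rabs tested, Rab31 alone had a higher log2 fold change, 2.69 (1.80 to 4.01), and the intervals of both genes overlap. The markers of fibroblast, endothelial and epithelial cells had more reads in the TSA library in 6 of 8 cases. Beside them, 69.0% of the tested genes whose normalized count averaged under 100 lay above 0, though not all of these markers were tested or at that level. The 3 that reached the read minimum all lay above 0. Pecam1, an endothelial adhesion molecule that leukocytes also carry, had 144 and 234 reads, and Epcam 55 and 61 (within counting error). Col1a1, a collagen of fibroblasts, had 1 and 20 and reached the minimum only through the TSA library. Of the 5 below the minimum, Pdgfrb had 0 and 6, Cdh5 0 and 4, and Krt18 0 and 1, while Col1a2 had 9 and 0 and Krt8 6 and 3. The part of these markers in the difference of Rab34 was not tested.

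Rab34 spans chr11:78188430-78192193 on the plus strand (GENCODE M21, GRCm38). The last 300 bases of its transcript overlap no exon of another gene and share no stretch of at least 75 bases at 95% identity with one. Of 12 genes within 100 kb, 9 reached the read minimum and 1 was past 2-fold. Over all genes tested, 11.5% were past 2-fold higher and 3.15% lower. The neighbour past 2-fold was Snord42b, a small nucleolar RNA inside Rpl23a. It had 1 and 15 reads and reached the minimum only through the TSA library.

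The protein-coding neighbours of Rab34 had log2 fold changes from -0.51 to 0.13. The lowest was Tlcd1, a membrane protein gene, with 267 reads in the control and 189 in the TSA library. Supt6, a histone chaperone of transcription elongation, had 1500 and 1137 reads (-0.41), and Traf4, a signalling adaptor, had 831 and 657 (-0.35). The highest was Sdf2, with 420 and 463 reads. Proca1, which starts 1199 bases beyond the end of Rab34 on the same strand, had no read in either library. The higher level of Rab34 thus stood beside protein-coding neighbours near or below the control level, while Snord42b was higher, with 1 and 15 reads.

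**Figure D2:**
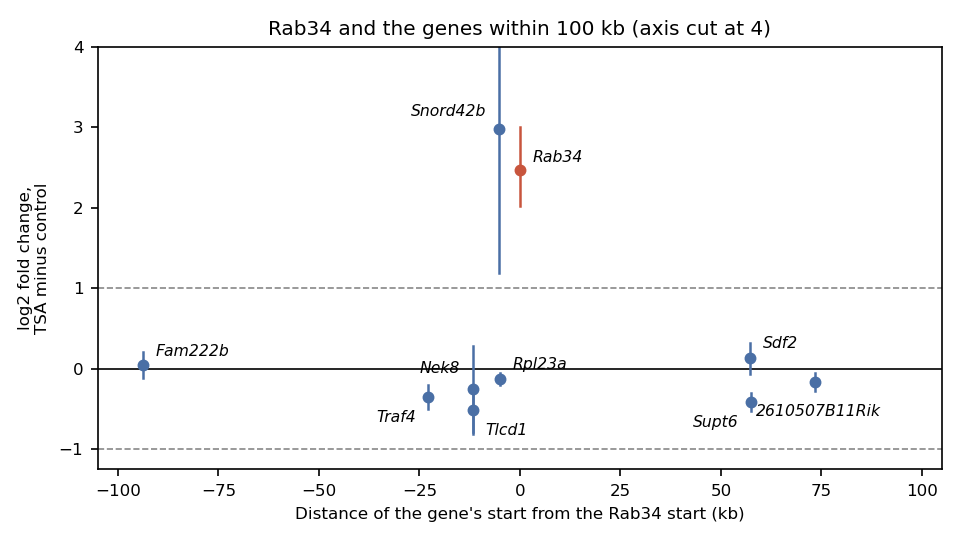
Log2 fold change (TSA minus control) of Rab34 and of the genes within 100 kb that reached the read minimum, plotted by the distance of their start from that of Rab34 in kb, with 95% counting intervals and the axis ending at 4, short of the interval of Snord42b. Rab34 stands at 2.47 while its protein-coding neighbours lie between -0.51 and 0.13.

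Rab34 was placed with the Rabs of late endosomes, lysosomes and lysosome-related organelles, the route on which cargo is degraded or stored. This group had 2588 reads in the control and 3031 in the TSA library, 1.16 times the control (1.10 to 1.22), and 1.09 times (1.03 to 1.15) when Rab34 was left out. Of its 6 members tested, 2 were past 2-fold higher and 5 lay above 0, and of the 5 without Rab34, 1 and 4 did. Of all genes tested, 11.5% were past 2-fold higher and 51.3% above 0. The median log2 fold change was 0.25 with or without Rab34.

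Rab32, which serves melanosomes, related organelles and the defence of phagocytes, had 32 reads in the control and 81 in the TSA library (log2 1.30, 0.72 to 1.96). Its 2 values were low but separated by more than counting error. Rab24, linked to autophagy, had 732 and 878 reads (0.25, 0.11 to 0.39). Rab9, which returns receptors from late endosomes to the Golgi, had 167 and 199 (0.24, -0.07 to 0.54), and Rab29, which brings the kinase LRRK2 to membranes, had 203 and 246 (0.26, -0.01 to 0.54). Neither of these last differences exceeded counting error. Rab7, the main Rab of late endosome to lysosome fusion, had 1407 and 1379 reads (-0.04, -0.15 to 0.06), with a direction that turned when reads were scaled by total reads. Of the members with few reads, Rab7b had 3 and 2, Rab9b 0 and 1, and Rab42 2 and 6.

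Among the Rabs of early endosomes, which receive cargo taken up from the surface, 1 of 6 was past 2-fold higher, beside 11.5% of all genes. That member was Rab31, which sorts cargo between the trans-Golgi and endosomes, with 9 reads in the control and 64 in the TSA library, or 0.830 and 6.13 CPM. It reached the read minimum only through the TSA library, the 1 Rab of which this was true. Rab22a, its closest relative in the family, had 330 and 244 reads (-0.45, -0.69 to -0.21). The closely related Rabs thus differed in opposite directions, and Rab31 made up 2.65% of their joint reads in the control and 20.8% in the TSA library.

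Rab21, which moves integrins inward, had 1002 reads in the control and 767 in the TSA library (-0.40, -0.54 to -0.26). The 3 forms of Rab5, the main Rab of early endosome fusion, differed among themselves. Rab5a had 282 and 249 reads (-0.19, -0.45 to 0.06), Rab5b 239 and 306 (0.34, 0.09 to 0.59) and the abundant Rab5c 1668 and 1752 (0.06, -0.04 to 0.15). The group summed to 3530 and 3382 reads, 0.949 times the control (0.905 to 0.995), and 0.996 times (0.950 to 1.04) by total reads.

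The Rabs of recycling endosomes and delivery to the plasma membrane held the most reads of any group, with 15327 in the control and 14549 in the TSA library. Their sum was 0.940 times the control (0.919 to 0.962), or 0.987 times (0.965 to 1.01) by total reads. Of 10 members tested, 0 were past 2-fold, beside 11.5% of all genes higher and 3.15% lower. Rab10, which delivers transporters and receptors to the surface, was the most read Rab, with 4506 and 4323 reads, or 415 and 414 CPM. Its log2 fold change of -0.07 (-0.13 to -0.01) turned to the other direction under another scaling. Rab14, which links the Golgi and endosomes, had 3120 and 2705 reads (-0.22, -0.29 to -0.15).

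Rab8a and Rab8b, which serve polarised delivery to the surface and to the cilium, had 2499 and 2326 reads (-0.12) and 2070 and 1838 reads (-0.19), both with intervals of the fold below 1. Rab11a and Rab11b, the Rabs of slow recycling, lay on opposite sides of the control. Rab11a had 652 and 757 reads (0.20, 0.05 to 0.35), and Rab11b had 1207 and 1111 (-0.13, -0.25 to -0.01).

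Rab4a, a Rab of fast recycling, had 62 reads in the control and 107 in the TSA library (0.76, 0.31 to 1.25), while its more abundant relative Rab4b had 411 and 415 (0.00, -0.20 to 0.20). Rab35, which sends cargo back to the surface, had 436 and 506 (0.20, 0.01 to 0.39). Rab12, which takes part in the turnover of transferrin receptor, had 356 and 454 (0.34, 0.13 to 0.54). Among the tested members of this route, the less read were thus at or above the control level and the most read slightly below it. Rab13 (2 and 0 reads), Rab15 (6 and 0), Rab17 (0 and 2) and Rab25 (0 and 5) were under the minimum, and all but Rab15 are known mainly from epithelia.

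The Rabs of regulated secretion, which dock and fuse stored vesicles, had the lowest ratio of summed reads. They had 952 reads in the control and 779 in the TSA library, 0.810 times the control (0.736 to 0.892), and 0.851 times (0.773 to 0.936) by total reads. Rab27a, which docks lytic granules and exosome-bearing endosomes at the plasma membrane, had 566 and 373 reads. It was 0.653 times the control (log2 -0.61, -0.81 to -0.42), the lowest value of all Rabs tested, though not past 2-fold.

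Within this group the members did not move together. Rab3a, an exocytosis Rab known best from synapses, had 283 and 210 reads (-0.44, -0.71 to -0.18). Rab3d, its relative of exocrine and mast cell granules, had 63 and 102 (0.67, 0.21 to 1.16). Rab37, also a granule Rab, had 36 and 76 reads (1.04, 0.47 to 1.68), which made it the Rab that passed the 2-fold limit most narrowly. The Rab that came closest without passing it was Rab6b of the Golgi route, with 205 and 403 reads (0.96, 0.71 to 1.21). Under the read minimum, Rab3b had 0 and 9 reads, Rab3c 0 and 4, and Rab26 4 and 5.

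**Figure D3:**
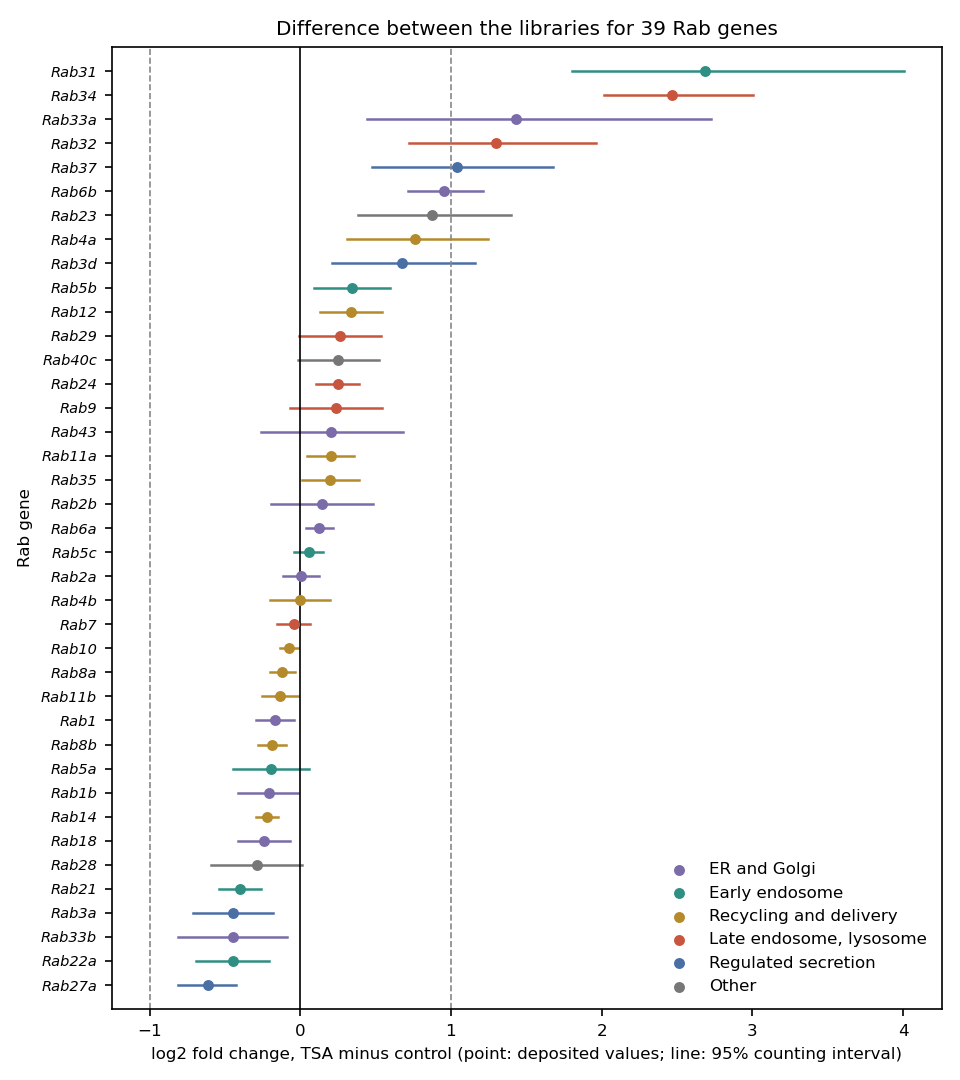
Log2 fold change (TSA minus control) of the 39 Rab genes tested, grouped by route, with 95% counting intervals and dashed lines at 2-fold in each direction. Rab31, Rab34, Rab33a, Rab32 and Rab37 lie above the upper line, 0 Rabs lie below the lower one, and Rab27a is lowest at -0.61.

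The Rabs between the endoplasmic reticulum and the Golgi, which carry newly made proteins, summed to 5799 reads in the control and 5964 in the TSA library. This was 1.02 times the control (0.982 to 1.06), or 1.07 times (1.03 to 1.11) by total reads. Of 10 members tested, 1 was past 2-fold higher, beside 11.5% of all genes. Rab33a, a Golgi Rab, was that member, with 10 and 29 reads (1.43, 0.44 to 2.72). Its relative Rab33b, which binds the autophagy factor Atg16l1, had 154 and 114 (-0.45, -0.81 to -0.09). The end of the Rab33b transcript shares near-identical stretches with 159 other genes, so its reads are uncertain.

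Rab6a, the main Rab of Golgi retrograde traffic, had 1957 reads in the control and 2158 in the TSA library (0.13, 0.04 to 0.22), against 205 and 403 for Rab6b, known mainly from neurons. Rab6b made up 9.48% of the reads of this pair in the control and 15.7% in the TSA library. The Rabs of export from the endoplasmic reticulum were near or slightly below the control. Rab1 had 1096 and 986 reads (-0.17, -0.29 to -0.04), and Rab1b had 448 and 391 (-0.21, -0.41 to -0.01). Rab18, which works at the endoplasmic reticulum and lipid droplets, had 601 and 514 (-0.24, -0.41 to -0.07).

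Rab2a, which acts at the Golgi intermediate compartment, had 1105 reads in the control and 1119 in the TSA library (0.00, -0.12 to 0.13). Its relative Rab2b had 139 and 155 (0.14, -0.20 to 0.48), and the Golgi Rab Rab43 had 72 and 84 (0.21, -0.26 to 0.68). For none of these did the difference exceed counting error. The transcript ends of Rab2b, Rab43, Rab4b and Rab5a overlap exons of other genes on the same or the opposite strand, as does that of Rab10 with its antisense gene Rab10os, and such reads could not be told apart here. Rab19 had 8 reads in each library, Rab30 1 and 2, and Rab39b 3 and 1.

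Of the remaining Rabs, Rab23, a negative regulator of Hedgehog signalling, had 52 reads in the control and 97 in the TSA library (0.87, 0.38 to 1.40). Rab28, found at the base of cilia, had 207 and 171 (-0.29, -0.59 to 0.01), and Rab40c, which carries a SOCS box that recruits a ubiquitin ligase, had 216 and 260 (0.25, -0.01 to 0.52). Together with Rab40b, which had no read, these summed to 1.10 times the control (0.971 to 1.25), or 1.16 times (1.02 to 1.31) by total reads. Of the 8 tested Rabs known from primary cilium formation, 1 was past 2-fold higher (12.5%, against 11.5% of all genes). That was Rab34, which was selected on this difference. The others ranged from -0.29 (Rab28) to 0.87 (Rab23). With Rab34 counted, 4 of the 8 lay above 0, beside 51.3% of all genes, and 4 below, with a median log2 fold change of 0.06.

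The remaining members had few reads. Of the 20 Rabs under the read minimum, 7 had no read in either library (Rab20, Rab27b, Rab36, Rab38, Rab39, Rab40b and Rab44), and 13 had at most 9 reads in a library. A count of 0 allows up to 3 reads, or 0.277 CPM in the control and 0.288 CPM in the TSA library. The interval of the fold excluded 1 for Rab3b (0 and 9 reads) and Rab15 (6 and 0 reads), in opposite directions. Together these 13 had 29 reads in the control and 45 in the TSA library.

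The size of the difference went with the level of the gene. All 14 Rabs whose normalized count averaged 500 or more lay within 2-fold, between -0.40 and 0.25 on the log2 scale, with a median of -0.10 against -0.11 for all genes of that level. The 17 Rabs between 100 and 500 had a median of 0.14 (all genes 0.01), and Rab34, which reached this level only through its TSA reads, was the 1 of them past 2-fold. Of the 8 Rabs under 100, all 8 had a log2 fold change above 0, as had 69.0% of the 3976 genes at that level. Among these, the 7 Rabs between 20 and 100 had a median of 0.87 and 3 of them were past 2-fold higher, while all genes there had a median of 0.26 and 18.6% were past 2-fold higher. Rab31, 1 of these 3, reached this level only through its TSA reads. The background for weakly read Rabs was thus itself shifted upward. By its control reads alone, Rab34 would lie in this range as well.

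**Figure D4:**
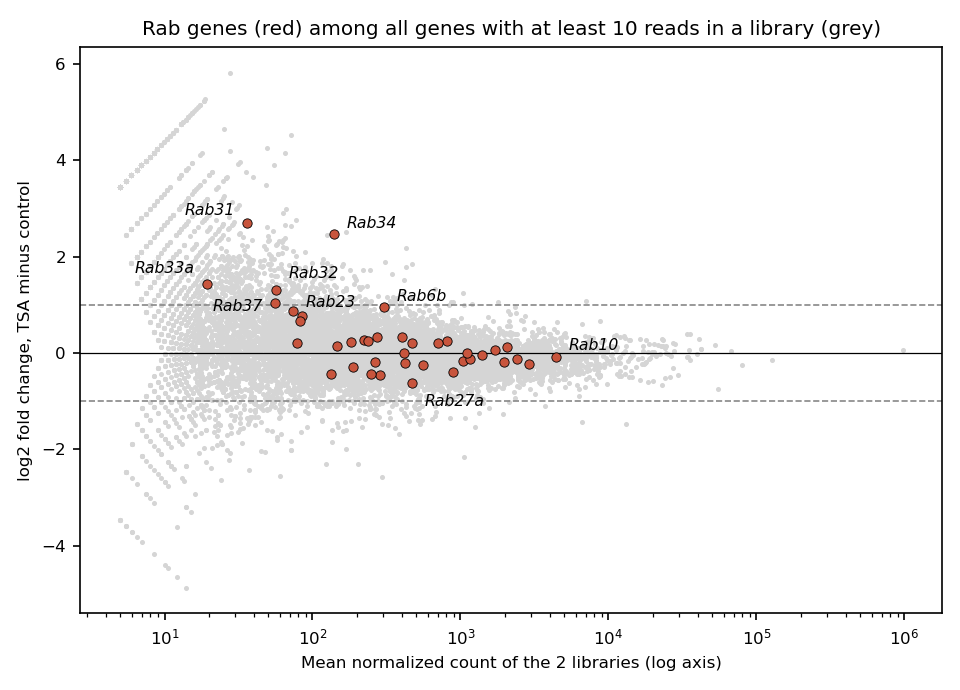
Log2 fold change (TSA minus control) against the mean normalized count (log axis) for all 12164 genes tested in grey and the 39 Rab genes in red. The Rabs with a mean of at least 500 lie between -0.40 and 0.25, and Rab34 stands at 2.47.

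Pairs of related Rabs, 12 in number and chosen after the values were seen, were compared by the log2 ratio of their folds, computed from reads without a pseudocount. For 8 of the 12 the 95% counting interval excluded 0, which describes these pairs and has no background of other gene pairs beside it. The Rab5 pairs share members, and the transcript ends of Rab2b, Rab4b and Rab5a overlap exons of other genes. The ratio of Rab31 to Rab22a was 3.26 (2.21 to 4.48), with Rab31 over the read minimum only through its TSA reads. That of Rab33b to Rab33a was -1.96 (-3.23 to -0.82), where the reads of Rab33b are uncertain, as given above. Rab3d stood above Rab3a by 1.12 (0.58 to 1.67), and its share of their reads was 18.2% in the control and 32.7% in the TSA library. Rab6b stood above Rab6a by 0.83 (0.57 to 1.10).

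In the Rab4 and Rab11 pairs the less read form was the higher one in the TSA library. Rab4b made up 86.9% of the Rab4 reads in the control and 79.5% in the TSA library, a log2 ratio of -0.77 (-1.29 to -0.26). Rab11b made up 64.9% of the Rab11 reads and then 59.5% (-0.33, -0.53 to -0.14). Among the Rab5 forms, Rab5b stood above Rab5a by 0.54 (0.18 to 0.89), and Rab5c below Rab5b by a ratio of -0.29 (-0.55 to -0.02). The pairs whose intervals held 0 were Rab1b and Rab1 (-0.04, -0.28 to 0.19), Rab2b and Rab2a (0.14, -0.22 to 0.50), Rab5c and Rab5a (0.25, -0.02 to 0.52), and Rab8b and Rab8a (-0.07, -0.19 to 0.06). Ratios between genes of the same libraries do not depend on the scaling.

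**Figure D5:**
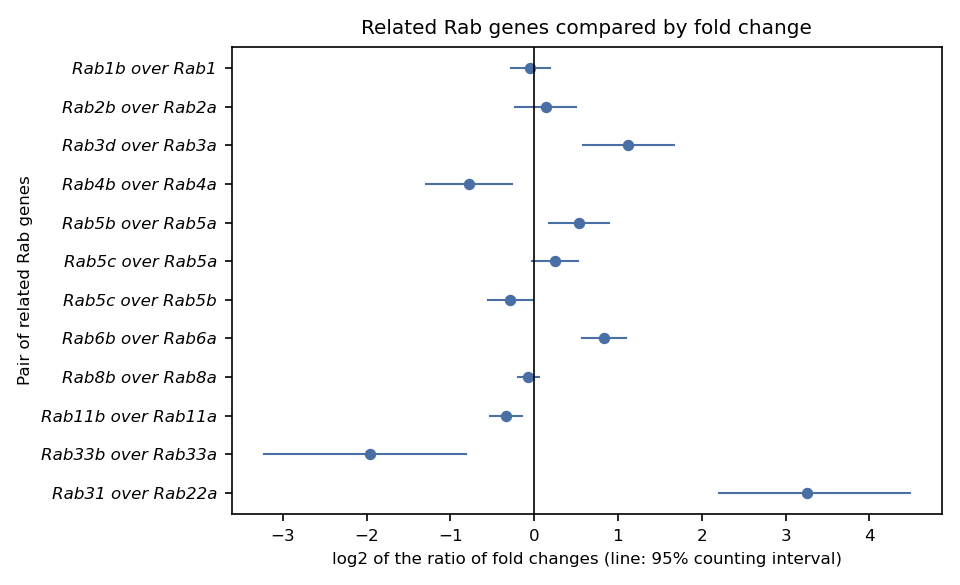
Log2 ratio of the fold changes of 12 pairs of related Rab genes, with 95% counting intervals. The interval excludes 0 for 8 pairs, and Rab31 over Rab22a lies farthest from it at 3.26.

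The genes that regulate Rabs or act with them were taken from lists of known regulators and effectors. Of 166 such genes, 144 were tested, and 6 were past 2-fold higher (4.17%, against 11.5% of all genes) and 3 lower (2.08%, against 3.15%). Their median log2 fold change was 0.03. In the prenylation and membrane cycle, which serves every Rab, 0 of 7 genes were past 2-fold. The highest of them was Rabac1, which helps to load Rabs onto membranes, with 579 and 909 reads (0.64, 0.48 to 0.79).

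Other cycle genes lay closer to the control. Gdi2, a widely expressed GDI, had 3639 and 4036 reads (1.10-fold, 1.05 to 1.15). The escort protein gene Chm had 409 and 490 (0.25, 0.05 to 0.44), and its relative Chml had 87 and 67 (-0.39, -0.87 to 0.09). Of the subunits of the transferase, Rabggtb had 1701 and 1855 reads (0.11, 0.02 to 0.21) and Rabggta 189 and 178 (-0.10, -0.40 to 0.20).

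Among 47 exchange factors, 4 were past 2-fold higher (8.51%, against 11.5% of all genes) and 0 lower (against 3.15%). Their median log2 fold change was 0.05. Sbf2, a DENN domain protein that activates Rab21 and Rab28, had 48 reads in the control and 190 in the TSA library (1.95, 1.51 to 2.46). Dennd1c, of the subfamily that acts on Rab35, had 111 and 234 (2.08-fold, 1.66 to 2.64). The others, named after their values were seen, reached the read minimum only through the TSA library. They were Rin1, an activator of Rab5, with 2 and 14 reads, and Dennd3, an activator of Rab12, with 4 and 15. A split into DENN and TRAPP genes was not planned. Of 16 DENN domain genes tested, 12 lay above 0, with a median of 0.24. Beside them, 51.3% of all genes tested lay above 0. Among genes whose normalized count averaged under 100, a level that Dennd3 and other DENN domain genes share, 69.0% did. The 13 TRAPP subunits tested, which activate Rab1, had a median of -0.07 and 0 past 2-fold.

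The 38 GTPase-activating proteins had 0 members past 2-fold in either direction and a median of -0.02. Of all genes tested, 11.5% were past 2-fold higher and 3.15% lower. Among 52 effectors, 2 were past 2-fold higher (3.85%) and 3 lower (5.77%), with a median of 0.01. Rilpl1, which binds Rabs at lysosomes and cilia, had 27 and 79 reads (2.83-fold, 1.85 to 4.67). The others had few reads, were named after their values were seen and reached the read minimum through a single library. Ehbp1, with 8 and 19 reads, did so through the TSA library. Lrrk2 (11 and 0), Sytl2 (12 and 2) and Osbpl1a (15 and 7) did so through the control. Of the proteins described as partners of Rab34 at lysosomes, Rilp had no read in either library and Flcn had 222 and 173 (-0.37, -0.67 to -0.08), while Rilpl1, counted among them as well, is the gene given above with 27 and 79. Of the 5 Rab-like genes tested, 0 were past 2-fold, and they ranged from Rabl3 (235 and 146 reads, -0.70) to Rabl2 (50 and 87, 0.77).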

How the data were processed

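Total RNA of 1 control and 1 TSA library was made into QuantSeq libraries and sequenced as single-end 75-nt reads, and the authors analysed them with ExDEGA. The submitters' processing notes name Bowtie2, bedtools and mm10, with no version or role, and the annotation and strand setting of the counting are not given in the sources used here. The authors deposited log2 values, each of a normalized count plus 1, as low values showed. Taken out of the log2 scale they fell on steps of 1.005 (control) and 0.995 (TSA) normalized counts per read, and within 0.1 of a whole number for 99.9% and 99.8% of values from 1 to 300 reads. Values of up to 0.016 in 1940 control rows stood for 0 reads. One gene, the ribosomal RNA precursor Rn45s, held 8.72% and 9.63% of the reads.

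The log2 fold change is the TSA value less the control value, both as deposited, so it holds a pseudocount of 1 normalized count and understates differences of low genes. Genes were counted where either library had 10 or more reads, and 2-fold was the threshold. With 1 library per condition no p-value was computed. Exact Clopper-Pearson 95% intervals were made from the reads with scipy 1.17.1 (Python 3.11.15, pandas 2.3.3, numpy 2.4.6, and matplotlib 3.10.9 for plots), after the steps were tested on simulated data. The members and the gene lists were chosen with earlier results of these data known. Every Rab with enough reads is named, and of regulators those past 2-fold whose normalized count averaged 50 or more, at most 4 per list, together with the cycle genes, Rilp, Rilpl1, Flcn and the neighbours of Rab34. A gene that this rule covers is not reported here. Positions came from GENCODE M21 (59 of 59 Rabs matched, Rab1 as Rab1a) and promoters from RefSeq windows (48 of 59 matched). Alternatives covered scaling, pseudocount, filter, threshold and interval.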

Additional observations from a re-analysis of the deposited data

How the results depend on the processing

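A filter does not alter the value of a single gene, and Rab31 and Rab33a were not counted under the stricter filters that removed them. Of all genes counted, 2817 of 15634 were past 2-fold higher and 1200 lower without a filter, 4.80% and 2.04% with at least 10 reads in both libraries, 278 and 141 of 9399 where the normalized count had to average at least 50, 18.7% and 8.34% at 1.5-fold, and 4.97% and 0.814% when the whole interval had to lie beyond 2-fold. Against these, the count of Rabs higher (5 of 39) was 10 of 52 without a filter, 3 of 37 with a mean of at least 50 (Rab34, Rab32 and Rab37, each under 50 in the control), 9 of 39 at 1.5-fold and 2 of 39 with the whole interval. The count lower (0) was 3 without a filter and 1 at 1.5-fold. For the regulators and effectors (144 in the main count), the count higher (6) was 3 with at least 10 reads in both libraries, 3 with a mean of at least 50, 18 at 1.5-fold and 1 with the whole interval. Their count lower (3) was 5 without a filter, 0 with 10 reads in both libraries, 0 with a mean of at least 50, 8 at 1.5-fold and 1 with the whole interval. Over all genes, 78.5% of those past 2-fold were higher, and 66.3% with a mean of at least 50.

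The log2 fold change of Rab34 stayed between 2.36 and 2.55, its distance from the median of the other Rabs between 2.27 and 2.44, and the median of the Rabs between 0.06 and 0.21. Rab37 lost the 2-fold call with a pseudocount of 5 (0.97), and Rab6b passed it when scaled by total reads (1.03) or without Rn45s (1.04). In alternatives chosen after seeing the data, the number of Rabs with an interval below 1 (13) was 7 by total reads, 7 without Rn45s and 8 by the upper quartile, and that above 1 (15) ran from 13 to 19. The direction of Rab4b, Rab7 and Rab10 turned under some scalings, while total-read scaling moved the median of all genes by 0.07. No paired analysis was possible because each condition had 1 library. Depth limits the weakly read Rabs, and nothing here measures the spread between cultures.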
